A study of Capra hircus with 3 samples.

Results

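The proteasome genes of goat skeletal muscle were followed across 3 postnatal stages. They were taken as every entry of the deposited expression table whose product description begins with the word proteasome, leaving out descriptions that contain "-like". Of 24689 entries, 52 began with that word, 4 of these were "-like" copies, and 48 remained. These 48 genes comprise 8 alpha and 7 constitutive beta subunits of the 20S core, 3 inducible beta subunits, 1 beta subunit of the thymus, 6 ATPases and 10 non-ATPase subunits of the 19S cap, 3 chaperones of 19S assembly, 4 activators, 1 inhibitor and 5 factors of 20S maturation. The animals were goats (Capra hircus), and the tissue on the labels was longissimus dorsi, a long back muscle. Kids were 2 months old, youths 9 months and adults 24 months, with 1 library per group and no genotype, strain or treatment on the labels. The sources used here do not say whether a library holds 1 animal or several pooled ones, nor of which sex or breed. Without replicates, no test was run and every difference below is one between libraries, not between stages.

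The proteasome is the barrel-shaped protease that degrades proteins tagged with ubiquitin. Its 20S core is a stack of rings of alpha and beta subunits, with the peptide-cutting sites on the beta subunits PSMB5, PSMB6 and PSMB7 facing the inside. The 19S cap binds ubiquitin, removes it, unfolds the substrate with its ring of ATPases and feeds it into the core. After interferon signalling, and constitutively in many leukocytes, newly assembled cores take up PSMB8, PSMB9 and PSMB10 in place of PSMB5, PSMB6 and PSMB7 and are then called immunoproteasomes, which favour peptides suited to class I antigen presentation. In skeletal muscle, together with ubiquitin ligases such as TRIM63 and FBXO32, the proteasome carries out much of the turnover of contractile proteins.

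Values are FPKM, fragments scaled to gene length and sequencing depth, which allows levels of different genes to be set side by side. The totals behind them, recovered from the values, came to 15829474 (kid), 14920689 (youth) and 18399385 (adult), so a 1-kb gene with a single read has 0.0632, 0.0670 and 0.0543 FPKM. A ratio between libraries is given with an exact 95% interval of the reads. Such an interval covers counting error only, leaves out variation between animals, and a difference is called beyond counting error where it leaves out 1. Muscle fibre genes were abundant: 7 of 8 markers were found and their summed level was 56402, 65824 and 73492 FPKM in kid, youth and adult. The labels' extraction protocol names mammary tissue, and of 8 genes of milk-producing mammary epithelium 5, the milk protein genes LALBA, CSN1S1, CSN1S2, CSN2 and CSN3, were listed at 0 in every library. The other 3 were above 0 in kid, youth and adult: the epithelial keratins KRT8, at 8.05, 2.95 and 2.87 FPKM, and KRT18, at 3.11, 1.44 and 1.17 FPKM, and the transcription factor ELF5, at 0.495, 0.216 and 0.175 FPKM.

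The proteasome was abundantly transcribed at each stage. The 48 genes made up 0.579%, 0.577% and 0.594% of the summed FPKM of the kid, youth and adult libraries. Averaged over the libraries, 46 of them reached 1 FPKM or more, as did 12121 entries of the whole table. The median entry of those 12121 stood at 8.18, 7.61 and 7.46 FPKM, below the least abundant of the other 14 core subunits (PSMA4, 51.8 FPKM in youth) and below every 19S subunit. The 2 genes under that level were PSMA8, the alpha subunit of testis proteasomes, and PSMB11, the beta subunit of the thymus. PSMA8 was listed at 0.256, 0.181 and 0.147 FPKM from 3, 2 and 2 reads, no more than the 3 reads taken as the floor, so no fold is given. PSMB11 was listed at 0.0546 FPKM in kid and at 0 in youth and adult.

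**Figure D1:**
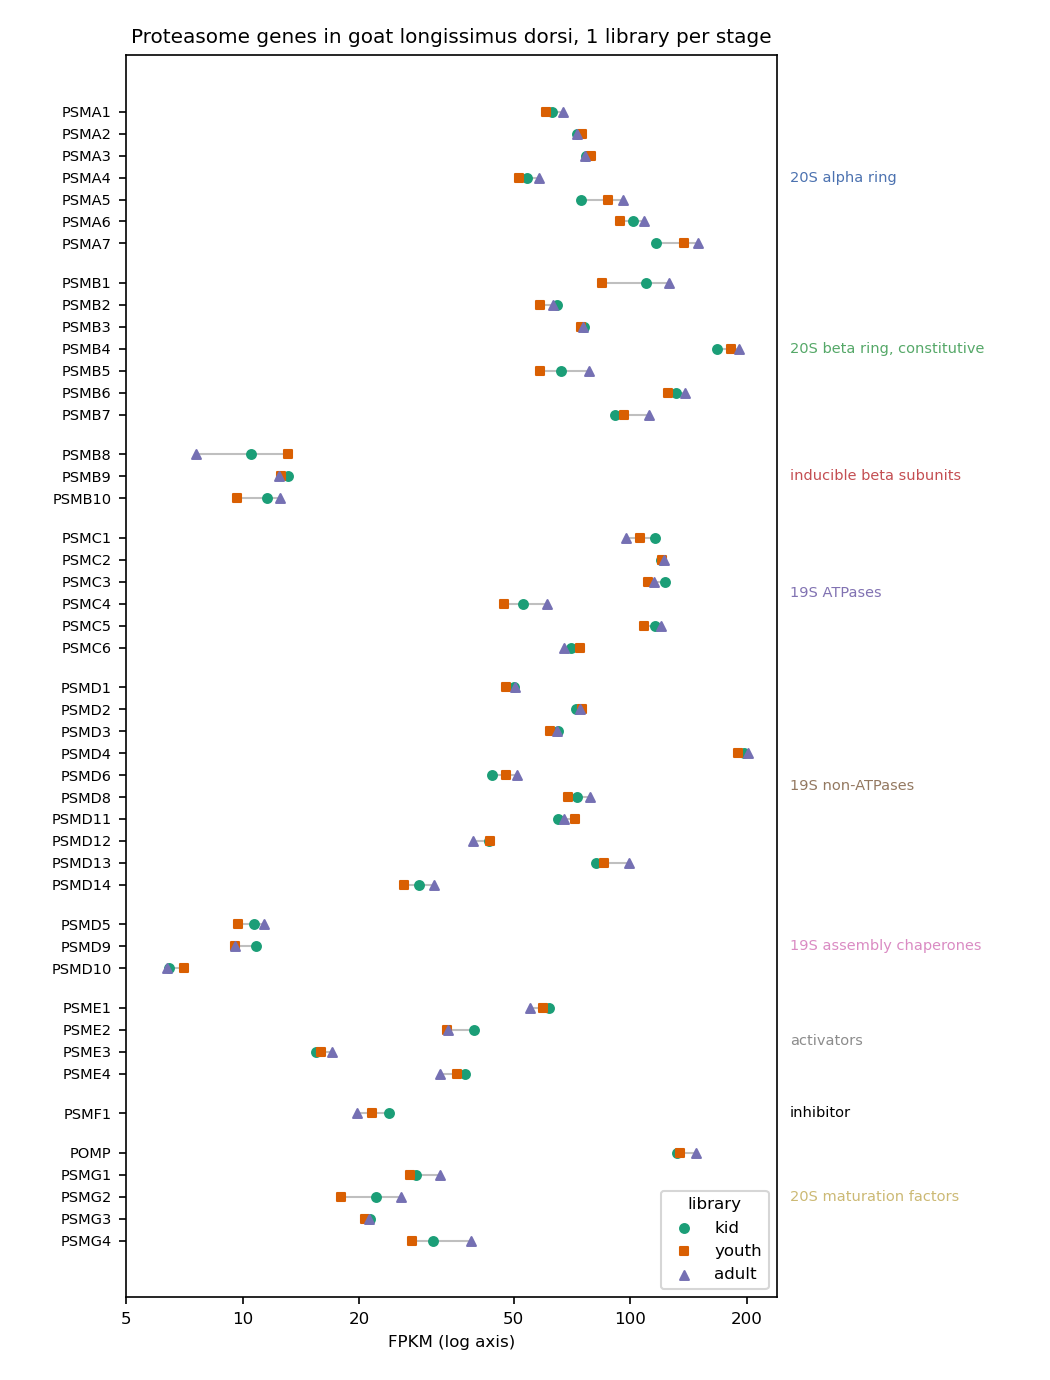
FPKM (log axis) of the 46 proteasome genes averaging 1 FPKM or more, grouped by role, with 1 point per library (kid, youth, adult) and a grey line joining the points of a gene. Core and 19S subunits lie between 26.1 and 201 FPKM, the inducible subunits between 7.59 and 13.1 FPKM, and PSMB8 has the longest line.

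Among the alpha subunits, which form the outer rings and gate the core, levels lay close together. PSMA4 was the lowest at 54.1, 51.8 and 58.2 FPKM in kid, youth and adult, and PSMA7 the highest at 116, 138 and 150 FPKM. The highest of PSMA1 to PSMA7 was thus 2.15, 2.66 and 2.57 times the lowest. Its own level was lowest in kid and highest in adult, 1.29-fold apart (1.205 to 1.378). PSMA5 had the same order, with 74.8, 87.6 and 95.8 FPKM, and was 1.28-fold higher in adult than in kid (1.18 to 1.39). These 2 were the alpha subunits that lay beyond counting error and in the same direction at both steps. PSMA2, at 72.8, 74.96 and 72.7 FPKM, and PSMA3, at 76.6, 79.4 and 76.2 FPKM, stayed within 1.04-fold over the 3 libraries. PSMA1, at 62.6, 60.7 and 66.9 FPKM, and PSMA6, at 102, 93.8 and 108 FPKM, were lowest in youth, as was PSMA4.

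The constitutive beta subunits form the inner rings. PSMB4, which has no cutting site, was the most abundant core subunit in every library at 167, 181 and 190 FPKM, and PSMB3, also without a cutting site, was level at 75.8, 74.6 and 75.3 FPKM. PSMB1, another structural subunit, differed the most of this ring, at 109, 84.6 and 126 FPKM. It was 1.29-fold lower in youth than in kid (1.196 to 1.399) and 1.48-fold higher in adult than in youth (1.38 to 1.60). Of the catalytic subunits, PSMB5, with the chymotrypsin-like site, stood at 66.1, 58.5 and 78.1 FPKM and was 1.34-fold higher in adult than in youth (1.24 to 1.44). PSMB6, with the caspase-like site, stood at 131, 125 and 138 FPKM. PSMB7, with the trypsin-like site, stood at 91.5, 96.3 and 112 FPKM. All 3 catalytic subunits were thus highest in adult, each beyond counting error against youth, while youth was the lowest library for PSMB5 and PSMB6 but not for PSMB7. PSMB2 had 64.7, 58.6 and 63.2 FPKM, and its intervals included 1 in each comparison.

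Each inducible subunit lay between 4.46-fold and 11.2-fold below the constitutive subunit it replaces. PSMB8 stood at 10.5, 13.1 and 7.59 FPKM in kid, youth and adult, from 240, 283 and 202 reads. PSMB9 stood at 13.1, 12.5 and 12.4 FPKM. PSMB10 stood at 11.5, 9.65 and 12.5 FPKM. The 3 genes therefore had 3 different orders: PSMB8 was highest in youth and lowest in adult, PSMB10 was lowest in youth, and PSMB9 was nearly level. Against kid, the youth library had 1.251-fold more PSMB8 (1.05 to 1.49). Against youth, the adult library had 1.73-fold less (1.44 to 2.08), where PSMB10 was 1.29-fold higher (1.04 to 1.61) and the interval of PSMB9 included 1 (ratio 0.987, 0.777 to 1.26).

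The ratio of an inducible subunit to its counterpart is taken within a library and does not depend on how libraries are scaled. PSMB8 amounted to 15.9% of PSMB5 in kid (interval 13.8% to 18.2%), 22.4% in youth (19.6% to 25.5%) and 9.72% in adult (8.37% to 11.2%). The 3 intervals do not overlap. The ratio was 1.41-fold higher in youth than in kid (1.17 to 1.71) and 2.31-fold lower in adult against youth (1.90 to 2.80), intervals here being approximate and taken on the log scale. PSMB9 amounted to 9.98%, 10.05% and 8.95% of PSMB6, and PSMB10 to 12.6%, 10.02% and 11.2% of PSMB7. For these 2 pairs the interval of every change between libraries included 1. Summed, the 3 inducible subunits amounted to 12.2%, 12.6% and 9.89% of their counterparts. The ratio of the sums was 0.783-fold in adult against youth, beside 0.434-fold for PSMB8 over PSMB5.

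**Figure D2:**
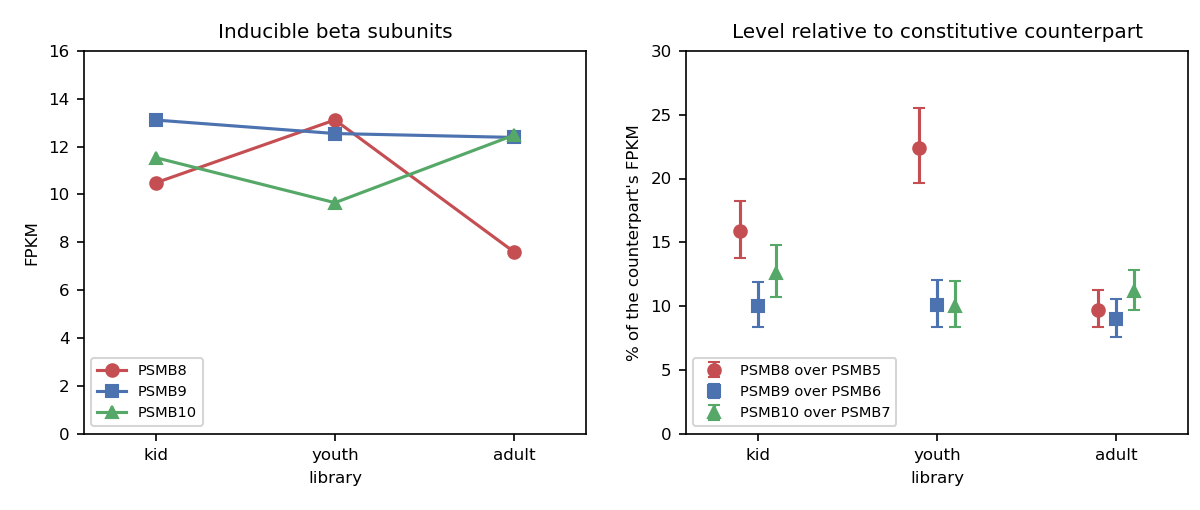
Left, FPKM of PSMB8, PSMB9 and PSMB10 in the kid, youth and adult libraries, with lines joining the points of a gene. Right, each as a percentage of the FPKM of its constitutive counterpart, with exact 95% counting intervals as bars; PSMB8 over PSMB5 is at 15.9%, 22.4% and 9.72%, while the other pairs stay between 8.95% and 12.6%.

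Markers of immune cells and fibroblasts were, like PSMB8, lower in adult than in youth. The summed level of the 5 general leukocyte genes found of 6 listed (PTPRC, LCP1, CORO1A, ITGB2 and LAPTM5) was 38.2, 38.2 and 22.9 FPKM in kid, youth and adult, level from kid to youth where PSMB8 was higher, and all 5 were lower in adult than in youth beyond counting error (against 27% of all entries). For the 7 macrophage genes found of 8 listed, the sum was 66.8, 74.7 and 37.5 FPKM, with all 7 lower in adult than in youth and 6 of them beyond counting error. For 6 genes of T and natural killer cells the sum was 8.51, 11.2 and 5.91 FPKM. All 4 that averaged 1 FPKM or more were lower in adult than in youth, 3 of them beyond counting error. Of the 12121 entries tested, 6382 were lower in adult than in youth. The 4 B cell genes summed to 1.97, 1.66 and 1.09 FPKM. The 5 fibroblast genes (PDGFRA, COL1A1, COL3A1, DCN and LUM) summed to 827, 1010 and 697 FPKM, and all 5 were lower in adult than in youth beyond counting error. None of these lists had a defining gene at 0, the part of these cells in the PSMB8 values was not tested, and in bulk tissue fewer cells of a type and less RNA per cell cannot be told apart.

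The 6 ATPases form the ring of the 19S cap that unfolds substrates. PSMC4 was the least abundant at 52.8, 47.3 and 61.0 FPKM, and PSMC2, PSMC3 and PSMC5 lay between 108 and 123 FPKM in all libraries. PSMC2 was the most even of the ring, at 120, 121 and 122 FPKM. In youth against kid, 4 of the 6 (PSMC1, PSMC3, PSMC4 and PSMC5) were lower beyond counting error (against 26.9% of all entries), by 1.06-fold to 1.12-fold. In adult against youth, PSMC4 was 1.29-fold higher (1.19 to 1.397) and PSMC5, at 116, 108 and 120 FPKM, 1.10-fold higher, while PSMC1 and PSMC6 (70.2, 74.1 and 67.3 FPKM) were lower. PSMC1 stood at 116, 106 and 97.2 FPKM, but an entry described as a copy of it (26S protease regulatory subunit 4-like) stood at 87.3, 100 and 98.9 FPKM, so the reads of PSMC1 could have been divided between the 2 entries. Their sum was 203, 206 and 196 FPKM, or 0.966-fold in adult against kid, where PSMC1 alone was 0.840-fold. At the recovered lengths of 1292 for PSMC1 and 338 for the copy, each read of the copy adds more FPKM. The sum therefore does not put divided reads back. Recovered reads were 2366, 2035 and 2310 for PSMC1 and 467, 506 and 615 for the copy.

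The non-ATPase subunits hold the ubiquitin receptors, the lid and the scaffold of the cap. PSMD4, a ubiquitin receptor, was the most abundant of all 48 genes at 196, 190 and 201 FPKM. PSMD14, the deubiquitinase of the lid, was the least abundant of its group at 28.5, 26.1 and 31.2 FPKM, and was 1.195-fold higher in adult than in youth (1.08 to 1.32). The scaffold subunits PSMD1, at 50.2, 47.8 and 50.4 FPKM, and PSMD2, at 72.4, 75.1 and 74.2 FPKM, had intervals that included 1 in every comparison. PSMD13, of the lid, had 81.4, 85.7 and 99.1 FPKM and was 1.22-fold higher in adult than in kid (1.14 to 1.30). PSMD12, also of the lid, was at 43.3, 43.4 and 39.3 FPKM. Of the non-ATPase subunits counted here, PSMD12 alone was lower in adult than in youth beyond counting error. PSMD11, at 65.1, 72.04 and 67.3 FPKM, was highest in youth. PSMD8 was lowest there, at 73.0, 69.0 and 78.8 FPKM, PSMD6 was highest in adult, at 44.0, 47.7 and 50.9 FPKM, and PSMD3 stayed near 65.2, 62.1 and 64.7 FPKM. A further 3 cap subunits have product descriptions that begin with other words and were not counted: PSMD7 stood at 89.5, 104 and 96.9 FPKM, ADRM1 at 63.1, 58.9 and 69.7 FPKM and SEM1 at 262, 260 and 298 FPKM. In adult against youth, PSMD7 was lower beyond counting error (ratio 0.929, 0.878 to 0.982), while ADRM1 and SEM1 were higher beyond it.

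The proteins that build the particle fell into separate ranges. The 3 chaperones of the 19S base, PSMD5, PSMD9 and PSMD10, were among the least abundant genes. PSMD5 had 10.7, 9.70 and 11.3 FPKM, PSMD9 had 10.8, 9.53 and 9.55 FPKM and PSMD10 had 6.44, 7.04 and 6.38 FPKM, and none of them differed beyond counting error in any comparison. Of the factors that assist assembly of the 20S core, POMP, the maturation protein, was by far the highest at 132, 134 and 148 FPKM. The alpha-ring chaperones PSMG1 to PSMG4 stood between 17.95 and 38.9 FPKM. All 5 maturation factors were higher in adult than in youth (against 47.3% of all entries), 4 of them beyond counting error (against 22.3%), with a median difference of 0.25 on the log2(FPKM + 1) scale beside -0.02 for all entries. PSMG2 had 22.0, 17.95 and 25.7 FPKM and was 1.43-fold higher (1.23 to 1.66), and PSMG4 had 31.0, 27.3 and 38.9 FPKM and was 1.42-fold higher (1.17 to 1.74). PSMG1 had 27.9, 27.0 and 32.3 FPKM. PSMG3, at 21.3, 20.7 and 21.1 FPKM, was the fifth factor and its interval included 1.

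The activators open the core without ubiquitin. PSME1 and PSME2, the interferon-inducible pair that forms the PA28 alpha/beta ring, stood at 61.6, 59.4 and 55.1 FPKM and at 39.5, 33.7 and 33.8 FPKM. PSME4, the single-chain activator PA200, stood at 37.4, 35.6 and 32.3 FPKM. These 3 of 4 were lower in adult than in kid beyond counting error (against 34.6% of all entries), by 1.12-fold (1.0196 to 1.229), 1.17-fold (1.04 to 1.32) and 1.16-fold (1.11 to 1.21). PSME3, the nuclear activator PA28 gamma, differed in direction, with 15.4, 15.9 and 17.0 FPKM. PSMF1, the inhibitor PI31, was at 23.8, 21.6 and 19.7 FPKM and was lower at both steps, each beyond counting error. In all of these the higher library was less than 25% above the lower.

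Across the 46 genes, differences between libraries were small. A gene was counted as 25% apart where the higher library was at least 25% above the lower, a difference of 0.32 on the log2(FPKM + 1) scale. Youth against kid gave 0 genes that far higher, against 6.02% of all entries tested, and 1 that far lower (PSMB1), against 14.9%. Adult against youth gave 6 that far higher (PSMB1, PSMG4, PSMG2, PSMB5, PSMC4 and PSMB10), which is 13% of the genes against 15.7% of all entries, and 1 lower (PSMB8) against 16.6%. Adult against kid gave 2 higher (PSMA7 and PSMA5) against 9.71%, and 1 lower (PSMB8) against 22.4%. PSMB8 in youth against kid (1.251-fold in FPKM) stayed outside the threshold, at 0.30 on the log2(FPKM + 1) scale. Also near the threshold were PSMB10, just inside it with a difference of 0.34 in adult against youth, and PSMG4, just outside it with 0.316 in adult against kid.

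In all 3 comparisons the difference stayed below this threshold for 37 of the 46 genes (80.4%), and for 4809 of the 12121 entries tested (39.7%). The exceptions were PSMA5, PSMA7, PSMB1, PSMB5, PSMB8, PSMB10, PSMC4, PSMG2 and PSMG4. The standard deviation of the log2(FPKM + 1) differences over the 46 genes was 0.135, 0.213 and 0.172 in youth against kid, adult against youth and adult against kid. Over all entries it was 0.295, 0.398 and 0.370. More abundant entries were somewhat more even. All 46 genes fall among the 7673 entries averaging 5 FPKM or more. Of these entries, 83.7%, 68.9% and 70.1% stayed below the log2(FPKM + 1) threshold in the 3 comparisons. The shares were 97.8%, 84.8% and 93.5% for the proteasome genes.

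**Figure D3:**
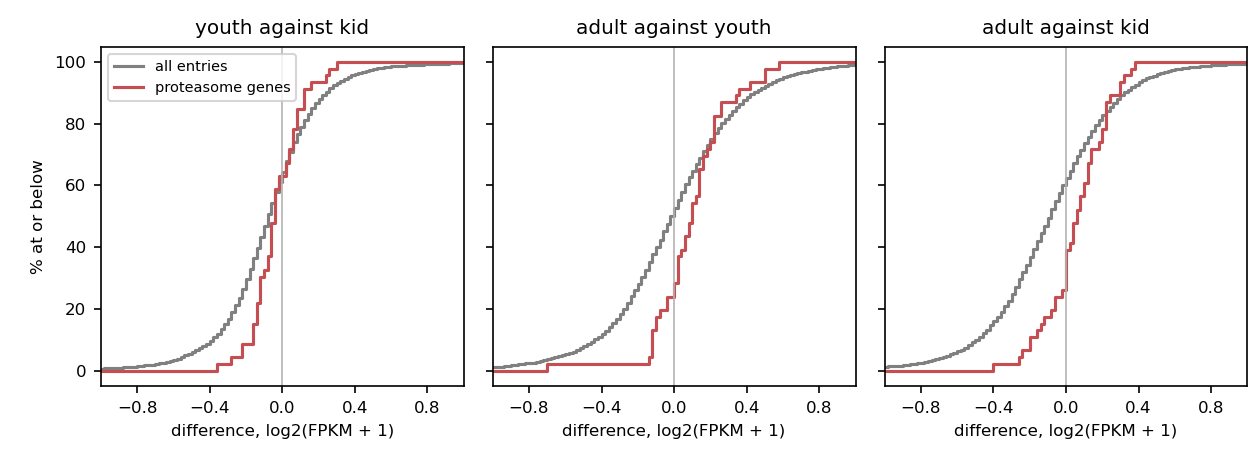
Cumulative percentage of entries (y axis) at or below a difference on the log2(FPKM + 1) scale (x axis, shown from -1 to 1), for the 46 proteasome genes and for the 12121 entries tested. The steeper curve of the proteasome genes shows their narrower spread, with SDs of 0.135, 0.213 and 0.172 beside 0.295, 0.398 and 0.370.

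The direction of the small differences was uneven between the steps. In youth against kid, 5 genes were higher beyond counting error (10.9%, against 11.6% of all entries) and 11 lower (23.9%, against 26.9%), shares near those of all entries. In adult against youth, 20 were higher beyond counting error (43.5%, against 22.3% of all entries, or 27.1% of those at 5 FPKM or more) and 6 lower (13%, against 27%, or 31%). In adult against kid, 15 were higher (32.6%, against 16.7%, or 22.3%) and 8 lower (17.4%, against 34.6%, or 37.1%). The median difference in adult against youth was 0.09 for the 46 genes beside -0.02 for all entries, and it stayed between 0.02 and 0.11 under the 3 other scalings of the libraries. In youth against kid it was -0.06 beside -0.08, and it turned to 0.03 under median-of-ratios scaling, so the sign at this step depended on the scaling. The count of higher against lower genes moved with the scaling as well, from 33 and 13 to 26 and 20 in adult against youth when the libraries were brought to the same sum, and from 17 and 29 to 31 and 15 in youth against kid and from 28 and 18 to 38 and 8 in adult against kid under median-of-ratios scaling.

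**Figure D4:**
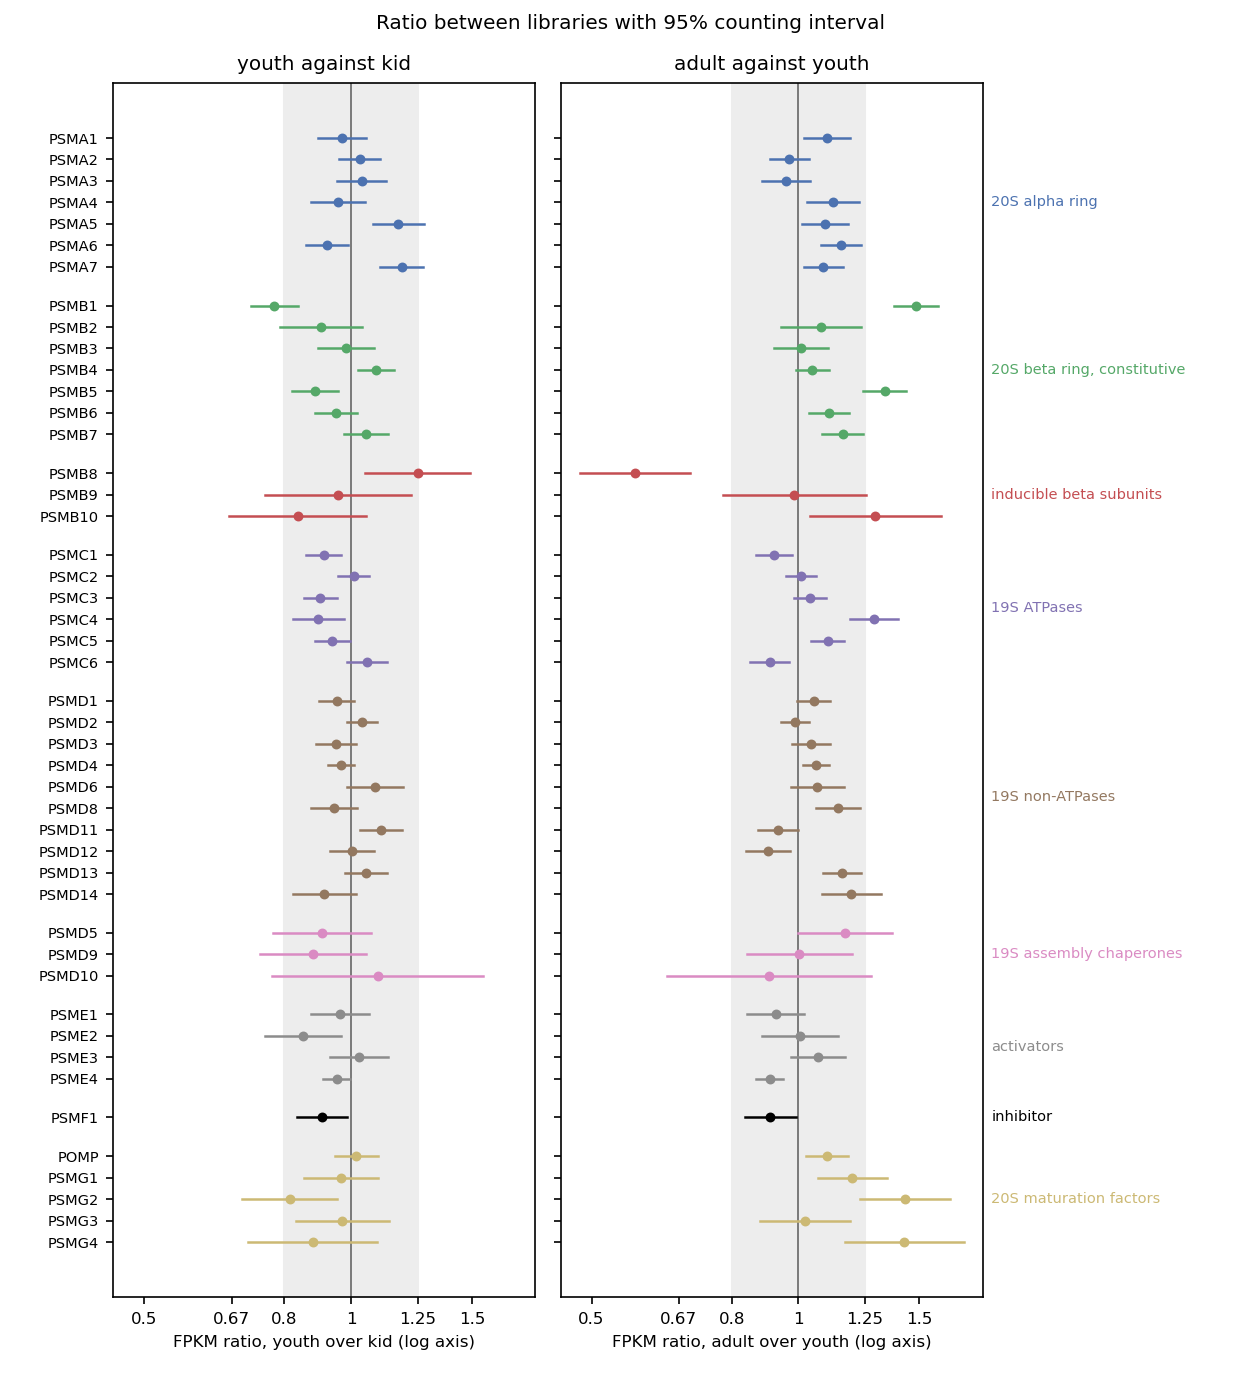
Ratio of FPKM (log axis) for each of the 46 proteasome genes, youth over kid on the left and adult over youth on the right, with exact 95% counting intervals as bars and a grey band where the higher library is less than 25% above the lower. Most points lie in the band, with PSMB8 at 0.579 and PSMB1 at 1.48 at the ends of the right panel.

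Among the genes counted here, core and cap differed little from each other. The summed core subunits stood at 1265, 1265 and 1410 FPKM in kid, youth and adult, and the summed cap subunits at 1316, 1286 and 1339 FPKM. Core over cap was thus 0.961, 0.984 and 1.05. The cap sum is partial, since it leaves out PSMD7, ADRM1 and SEM1, of which SEM1 alone stood at 262, 260 and 298 FPKM. With these 3 subunits the ratio would be lower in each library. In adult against youth, 12 of 14 core subunits were higher (against 47.3% of all entries). Their median difference of 0.13 remained positive under the other scalings. Beyond counting error, 9 of the 14 were higher (64.3%, against 22.3% of all entries, or 27.1% of those at 5 FPKM or more) and none lower (against 27%, or 31%). Of the 16 cap subunits counted, 11 were higher, with a median difference of 0.07. Beyond counting error, 6 of the 16 were higher (37.5%, against 22.3%, or 27.1%) and 3 lower (18.8%, against 27%, or 31%). Intervals narrow as reads rise, and these subunits are more abundant than most entries, so the shares are not from genes of like level. In adult against kid the medians were 0.10 for the core and 0.04 for the cap, the latter turning to -0.01 when the libraries were brought to the same sum. Whether core and cap differ in these medians was not tested, since there is 1 library per stage. Within the core, summed beta over summed alpha subunits was 1.263, 1.159 and 1.247.

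In the values as deposited, the order of the 3 libraries was most often that with youth lowest. It was found for 24 of the 46 genes (52.2%), against 37.3% of all entries tested, and included PSMB1, PSMB5, PSMC4 and 4 of the 5 maturation factors, PSMG1 to PSMG4. Higher at both steps were 9 genes (19.6%, against 10.1%), among them POMP, PSMA5, PSMA7, PSMB4, PSMB7 and PSMD13. Lower at both steps were 5 (10.9%, against 27.1%), namely PSMB9, PSMC1, PSME1, PSME4 and PSMF1. The FPKM sum of PSMC1 and its copy was 1.01-fold in youth against kid. Reads of the shorter copy weigh more in that sum, so it does not settle whether PSMC1 is lower at both steps. Highest in youth were 8 (17.4%, against 25.6%), including PSMB8. Many of these steps lie within counting error, so the orders are descriptions. They also depended on the scaling. Under median-of-ratios scaling 31 of the 46 genes were higher in youth than in kid and 15 lower, so youth could be lowest for at most 15.

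The deposited annotation and the reference gene order describe what these genes share beyond their names. All 19 alpha and beta genes, including those without a cutting site, carry the terms for the proteasome core complex and for threonine-type endopeptidase activity in the table. These terms are not particular to them. The first is also on 17 other entries and the second on 10, polycomb group ring finger 2 having both. ATP binding is given for 7 of the 48, the 6 PSMC genes and PSMD1, and for 1651 other entries. In assembly ARS1.2, PSMB5 lies next to PSMB11, of which PSMB5 was at 58.5 FPKM or more and PSMB11 was at 0.0546 FPKM or listed at 0. PSME1 and PSME2 are separated by a single gene, EMC9.

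Other genes of the pathway were taken from lists. Of 13 genes that act on proteasome transcription, 4 were higher and 9 lower in adult than in youth, 3 and 7 of them beyond counting error (against 22.3% and 27% of all entries), with a median difference of -0.16 beside -0.02 for all entries. NFE2L1, the factor that raises all subunits together when proteasome activity is short, was the most abundant and close to level at 183, 190 and 195 FPKM. FOXO1, a factor of muscle atrophy programmes, stood at 54.3, 56.2 and 14.3 FPKM, and FOXO3 at 34.4, 38.6 and 24.7 FPKM. IRF1, which drives the inducible subunits, stood at 10.5, 13.3 and 6.92 FPKM. It was 1.26-fold higher in youth than in kid (1.09 to 1.47) and 1.92-fold lower in adult against youth (1.64 to 2.26), the order also seen for PSMB8.

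Interferon-induced partners of the pathway showed that order too. Of 10 such genes, 7 were higher in youth than in kid, 6 beyond counting error (against 11.6% of all entries). In adult against youth, 9 were lower, 8 beyond counting error (against 27%), with a median difference of -0.60 beside -0.02 for all entries. ISG15, a ubiquitin-like modifier, stood at 4.69, 21.6 and 4.62 FPKM. GBP4, an interferon-induced GTPase, stood at 0.787, 2.57 and 0.0502 FPKM, the last from 2 reads (ratio of adult to youth 0.0195, 0.00233 to 0.0728). IRF1 is counted in this list too. The immune marker sums given beside PSMB8 were likewise lower in adult than in youth, and their part in these values was not tested.

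Genes that load and trim class I peptides were lower in adult than in kid in 12 of 14 cases, 11 beyond counting error (against 34.6% of all entries), with a median difference of -0.20 beside -0.10 for all entries. B2M, the light chain of class I molecules, stood at 195, 162 and 157 FPKM. THOP1, a cytosolic peptidase, stood at 34.7, 26.5 and 29.8 FPKM, and HSPA5, the main chaperone of the endoplasmic reticulum, at 52.1, 66.4 and 42.5 FPKM. In the reference gene order (assembly ARS1.2), PSMB9, TAP1, PSMB8 and TAP2 follow each other, TAP1 and TAP2 being the peptide transporter. TAP1 and TAP2 were added after their values were seen. TAP1 stood at 9.09, 11.02 and 9.88 FPKM and TAP2 at 10.7, 10.6 and 8.69 FPKM. Of these 4 neighbours, PSMB8 alone was 25% apart in adult against youth.

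Ubiquitin genes, shuttles and ligases act upstream of the proteasome, and some of them lay further apart between libraries than any subunit. Of 28 genes of substrate delivery averaging 1 FPKM or more, 10 were higher and 18 lower in adult than in youth, 7 and 15 beyond counting error (against 22.3% and 27% of all entries; median difference -0.09). The polyubiquitin gene UBB, the most abundant of the list, stood at 1229, 1294 and 1110 FPKM. USP5, which recycles free ubiquitin chains, stood at 21.3, 18.2 and 26.6 FPKM, and AKIRIN2, which brings proteasomes into the nucleus and was matched by gene number to an entry the table calls uncharacterized, at 13.9, 15.1 and 19.96 FPKM. Of 17 muscle ubiquitin ligases and their adaptors, 8 were higher and 9 lower in adult than in youth, 6 and 7 beyond counting error (against the same shares of all entries; median difference -0.14). TRIM63 (MuRF1), which tags sarcomere proteins, stood at 257, 644 and 168 FPKM, 3.83-fold apart between youth and adult (3.71 to 3.95), beside 1.73-fold for PSMB8. The mitochondrial ligase MUL1 stood at 14.6, 16.5 and 25.5 FPKM, NEDD4 at 11.02, 15.0 and 9.72 FPKM, and KLHL41, the most abundant of the list, at 1397, 1267 and 1420 FPKM.

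Proteases and chaperones that work beside the proteasome were mixed. Of 8 other muscle proteases and their inhibitor averaging 1 FPKM or more, 4 were higher and 4 lower in adult than in youth (median difference 0.02). The lysosomal protease CTSD stood at 87.2, 68.6 and 107 FPKM, CTSB at 104, 117 and 82.6 FPKM, and the muscle calpain CAPN3 at 317, 330 and 290 FPKM. Of 6 protein-folding chaperones, 5 were lower in adult than in youth beyond counting error (against 27% of all entries; median difference -0.33). HSPH1 stood at 32.4, 31.8 and 17.7 FPKM, HSP90AA1 at 370, 522 and 357 FPKM, HSPA4 at 32.6, 40.1 and 31.0 FPKM and HSPA8 at 432, 493 and 422 FPKM.

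**Figure D5:**
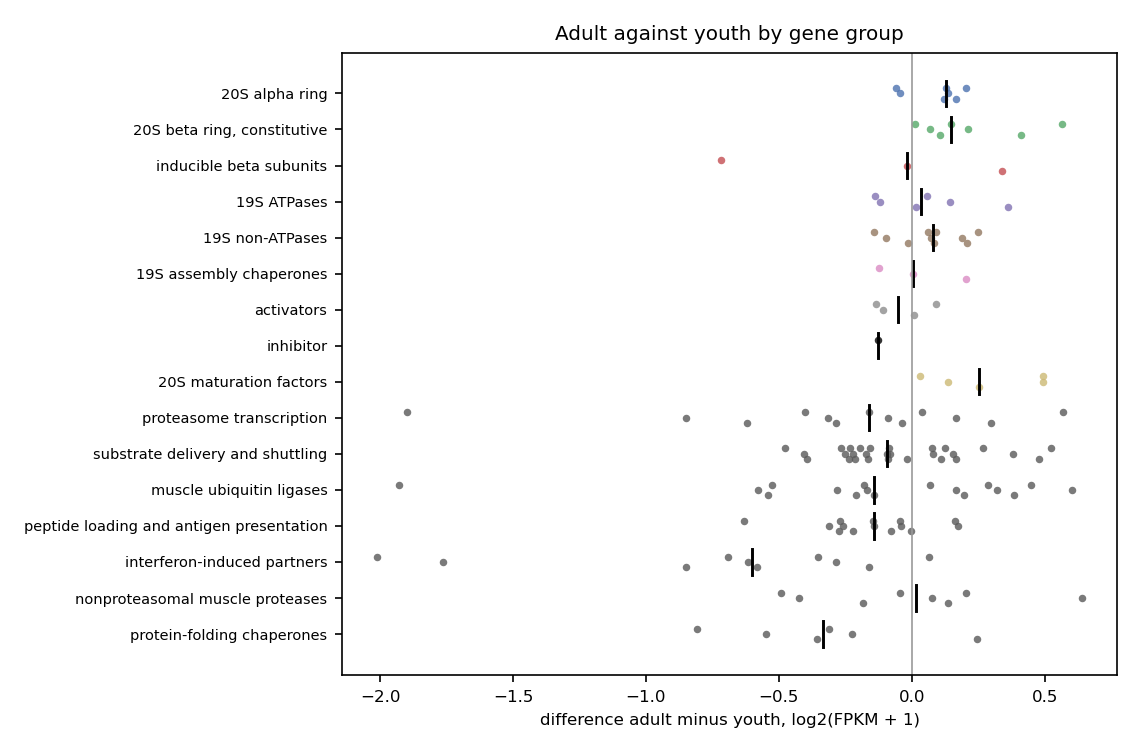
Difference of adult minus youth on the log2(FPKM + 1) scale (x axis) for each gene (points) of the proteasome role groups, in colour, and of the pathway lists, in grey, with black bars at the group medians. Proteasome genes other than PSMB8 lie between -0.14 and 0.56, while the pathway lists reach from -2.01 to 0.64.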

How the data were processed

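Messenger RNA of goat longissimus dorsi was sequenced in 3 libraries, 1 each of kid, youth and adult. The authors deposited 1 table of FPKM values with a column per stage. FastQC, TopHat2 and DESeq are listed per the submitters' processing notes, which state neither versions nor what each tool did. Genome build, annotation and handling of multiply matching reads were not given in the sources used here. Related genes' reads could therefore be shared or dropped. FPKM is relative to the mapped total, and abundant muscle genes can shift all other values.

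Whole reads were recovered from the FPKM values, within 5e-05 of a read, for the 16054 entries detected in 3 libraries and the 1157 detected in 2, and made up 95.3%, 94.9% and 96.3% of the totals. The shortest gene length that gave whole reads was taken. Recovered reads of an entry could therefore be a whole divisor of the true ones, in which case its interval is too wide. Reads of the 1655 entries detected in 1 library stayed unresolved. Of the 48 proteasome genes, 47 had whole reads. Gene symbols came from the RefSeq table of assembly ARS1.2, where all 48 matched. KRT8 was matched by product text, since its gene number carries another keratin's description in the table. Differences were taken on log2(FPKM + 1), a scale that understates differences of low genes, for entries averaging 1 FPKM or more, and a gene was counted as apart where the higher library was at least 25% above the lower. Intervals are exact conditional binomial ones at 95% (scipy 1.17.1, Python 3.11.15), and the steps were tested on simulated reads. With 1 library per stage no test was run and no p-value computed.

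All proteasome genes are named or counted. Full values are given for the inducible subunits and their counterparts, the most and least abundant gene of each role, and the 5 highest and 5 lowest differences in each comparison. From each pathway list the most abundant gene and the 3 with the largest difference are named, except some that are not reported here. The genes and lists were chosen with earlier results of these data known. MAFK, IRF7, USP18, GBP2 and UBD were not found in the table by name and are not analysed here. Alternatives tried were other pseudocounts, filters, scalings, folds, member rules and reference subunits.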

Additional observations from a re-analysis of the deposited data

How the results depend on the processing

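For 27 results (counts, medians and inducible ratios), 219 values were computed under the alternative settings, and 33 of them moved. Median-of-ratios scaling, which lifts youth and adult relative to kid, gave 2 genes higher and 0 lower in youth against kid, with medians of 0.0345 for all 46 genes, 0.0590 for the core, 0.0340 for the cap and 0.0276 for the inducible subunits. The same scaling gave a median of 0.00353 for the inducible subunits in adult against youth. In adult against kid it gave 6 genes higher and 0 lower, and medians of 0.165 for all genes, 0.151 for the cap and 0.0311 for the inducible subunits. Scaling without the 10 most abundant genes gave 1 gene higher and 0 lower in youth against kid and a core median of 0.0201. Libraries brought to the same sum gave 0 genes higher in adult against kid and a cap median of -0.00859. A pseudocount of 5 gave 0 genes lower in adult against kid. At a fold of 1.5 there were 0 genes lower in youth against kid, 0 higher in adult against youth, and 0 higher and 0 lower in adult against kid; at a fold of 2 these were 0 as well, and so was the count lower in adult against youth. As sums of the 3 subunits in place of PSMB8 over PSMB5 or PSMB10 over PSMB7, the ratio was 1.04 for youth against kid and 0.783 for adult against youth, and in place of PSMB8 over PSMB5 it was 0.813 for adult against kid. PSMB8 over the median of PSMA1 to PSMA7 gave 0.603 for adult against youth. The causes of these shifts were not tested. The 11 differences past the threshold of 25% kept their sign in all 110 values under the alternatives, and 99 still reached it. The settings that changed only the filter, the member rule or PSMC1 could not alter these differences. Their values in the 110 were fixed in advance, and only the other pseudocounts and scalings could move them. Summing PSMC1 with its copy was added after seeing the data. No paired analysis was possible because each stage has 1 library and no replicate could be left out. The planned description of protein and promoter sequences was not run, and no sequences are used here. Depth limits PSMA8, PSMB11 and PSMD10.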
